A study of Homo sapiens with 24 samples.

Results

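The nuclear genes of the mitochondrial respiratory chain were examined in CD18/HPAF, a human cell line of pancreatic adenocarcinoma that was grown in DMEM with serum. The members were chosen by symbol: the NDUFA, NDUFB, NDUFC, NDUFS and NDUFV genes with a number, SDHA to SDHD, the UQCR genes, CYC1, the COX4 to COX8 genes and the ATP5 genes. This rule found 88 genes in 101 rows, out of 25991 gene names in 30276 rows, and it used no measured value. RNA was sequenced from cells given 1 µM ISOX (CAY10603) for 48 h and from untreated cells, with 12 sample titles in each group. ISOX is a histone deacetylase inhibitor that acts most strongly on HDAC6. Nothing in the labels says that the untreated cells received the vehicle, and both groups come from a single cell line.

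The deposited table gives 1 FPKM per gene and group, pooled over the samples by the authors. FPKM divides the fragments of a gene by transcript length and by library size, so levels of different genes are compared here per length. No spread between replicates can be had from pooled values, the depth behind them is unknown, and no difference below was tested. Features were used where both values were above 0 and their mean was at least 1 FPKM, which held for 11915 rows and for 80 of the 88 genes. Over the 11915 rows the median log2(ISOX/untreated) was 0.21, a 1.16-fold difference, so each member is read against this median. "Higher" in the counts below means more than 1.5-fold above it and "lower" more than 1.5-fold below it. In bulk RNA, a change in the share of cells that express a gene and a change in RNA per cell cannot be told apart.

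The epithelial identity of the cells was visible in both groups, with all 7 listed epithelial markers (keratins KRT8, KRT18 and KRT19, EPCAM, CDH1, MUC1, CEACAM6) between 82.3 and 3325 FPKM with ISOX and between 85.1 and 2970.2 FPKM without, and CEACAM6 had the highest log2 ratio of these, 1.78. Of 5 leukocyte markers, CD3E was at 0 in both groups, PTPRC was at 0.0118 FPKM with ISOX and 0.00579 FPKM in untreated cells, and the markers above the limit, CD68 and CD14, summed to 33.3 FPKM with ISOX and 22.8 FPKM in untreated cells, with log2 ratios of 0.39 for CD68 and 1.39 for CD14. Of 5 fibroblast markers, COL3A1 was at 0.0212 FPKM with ISOX and 0.00713 FPKM in untreated cells, and COL1A2 and DCN were also below the limit. LUM was at 36.8 FPKM with ISOX and 12.9 FPKM in untreated cells. COL1A1 was at 2.75 FPKM with ISOX and 2.48 FPKM in untreated cells. All 4 endothelial markers were below the limit, with CDH5 and KDR at 0 in both groups. The part of these markers in the results below was not tested.

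The respiratory chain sits in the inner mitochondrial membrane. Complex I oxidises NADH and complex II oxidises succinate, both pass electrons to ubiquinone, and complex III hands them to cytochrome c, from which complex IV reduces oxygen. Complexes I, III and IV pump protons, and complex V, the ATP synthase, uses the returning protons to make ATP. Most of their subunits are nuclear-encoded, but part of the catalytic cores of complexes I, III and IV and part of the proton channel of complex V are encoded in mitochondrial DNA. No row of the table lies on the mitochondrial chromosome, so those subunits were not analysed here.

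Transcripts of respiratory chain subunits lay on the upper side of the ISOX comparison. Their median log2 ratio was 0.43 (1.35-fold), against 0.21 for all features, and 71 of 80 (88.8%) lay above the median of all features. In all, 18 members (22.5%) were higher, against a background of 5.59% of all features, and no member was lower, against a background of 4.9%. The other 62 members lay within 1.5-fold of the median. At more than 2-fold, 4 members were higher, against 1.6% of all features, and none was lower, against 1.17%. Without subtracting the median, 25 members lay more than 1.5-fold above equal levels, against 12.4% of all features, and none lay below, against 2.25%. Over all features, higher ones made up 53.3% of those past 1.5-fold in either direction with the median subtracted and 84.6% without. The lowest member was NDUFB2 at a log2 ratio of −0.0024 and the highest was COX6B2 at 1.77. The members' summed FPKM was 30220.4 with ISOX and 19194 in untreated cells, or 3.46% of all FPKM in the table with ISOX and 2.88% in untreated cells.

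**Figure D1:**
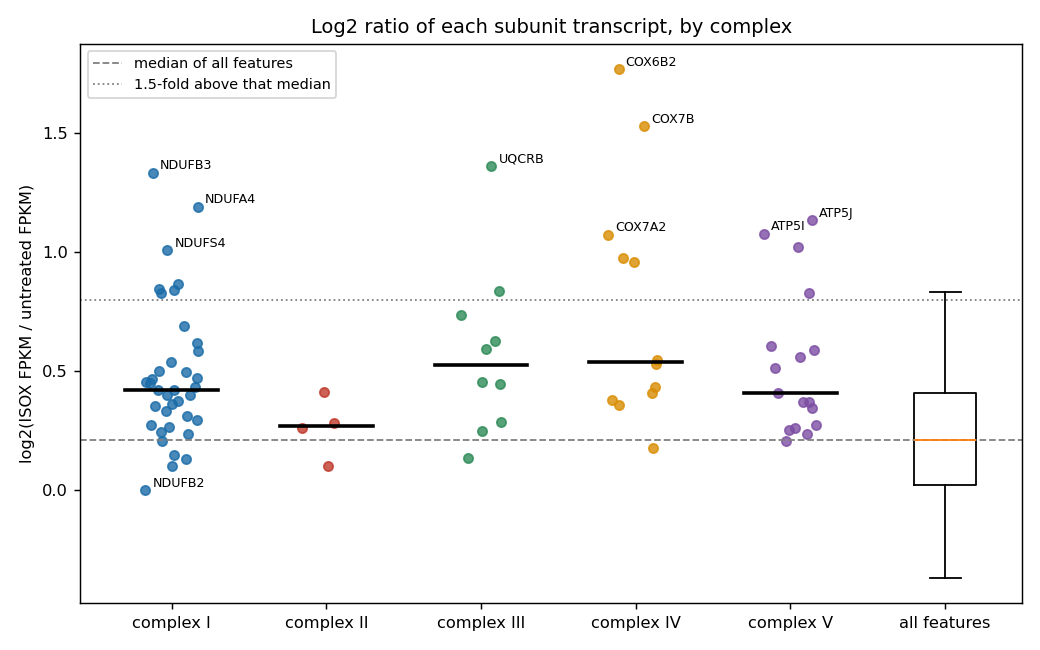
Log2 ratio of pooled FPKM, ISOX over untreated (vertical axis), for each of the 80 members by complex, with black bars at the median of each complex and, at the right, a box over all 11915 features (quartiles, whiskers at the 5th and 95th percentiles). The black bars of complexes III and IV (0.52 and 0.54) stand highest, that of complex II (0.27) lowest, and no member lies more than 1.5-fold below the dashed median of all features.

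By complex, the median log2 ratio was 0.54 for complex IV (12 members), 0.52 for complex III (10 members), 0.42 for complex I (37 members), 0.41 for complex V (17 members) and 0.27 for complex II (4 members). Complex IV had 5 higher members of 12, complex V 4 of 17, complex III 2 of 10, complex I 7 of 37 and complex II none of 4. Over all features 5.59% were higher, so that none of 4 is near the background. With pooled values and few members per complex, no order among the complexes was tested. The complexes also overlapped widely, since each of them held at least 1 member below a log2 ratio of 0.21.

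Complex I is the largest of the complexes, with a matrix arm that oxidises NADH and reduces ubiquinone and a membrane arm that pumps protons. Its 7 nuclear-encoded core subunits bind the flavin, the iron-sulfur clusters and the ubiquinone site. Their median log2 ratio was 0.40, and none was higher. With 5.59% of all features higher, none of 7 is near the background. NDUFV1, the flavin-binding subunit, was at 113 FPKM with ISOX and 85.5 FPKM in untreated cells (log2 ratio 0.40). NDUFS1, which carries iron-sulfur clusters and was the least abundant core subunit, was at 39.9 FPKM with ISOX and 29.8 FPKM in untreated cells (log2 ratio 0.42). NDUFS3, the most abundant core subunit, was at 223 FPKM with ISOX and 166 FPKM in untreated cells (log2 ratio 0.43). NDUFS7, NDUFS8 and NDUFV2, which also belong to the core, had log2 ratios of 0.31, 0.37 and 0.40.

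The higher members of complex I were all accessory subunits, which surround the core and take part in its assembly and stability, apart from NDUFA4. NDUFB3 encodes a small subunit of the membrane arm, and its locus in hg38 spans bases 201071739 to 201085751 of chromosome 2. It was at 187 FPKM with ISOX and 74.3 FPKM in untreated cells (log2 ratio 1.33, 2.52-fold). NDUFA4, which is found with complex IV in spite of its name, was at 402 FPKM with ISOX and 176 FPKM in untreated cells (log2 ratio 1.19). NDUFS4, an accessory subunit of the NADH-oxidising module that is mutated in forms of Leigh syndrome, was at 246 FPKM with ISOX and 123 FPKM in untreated cells (log2 ratio 1.00). These 3 were more than 2-fold apart between the groups. NDUFA5 of the ubiquinone-reducing module was at 20.1 FPKM with ISOX and 11.05 FPKM in untreated cells (log2 ratio 0.87). NDUFS5 of the membrane arm was at 391 FPKM with ISOX and 218 FPKM in untreated cells (log2 ratio 0.85). NDUFA1, another subunit of the membrane arm, was the most abundant complex I transcript in both groups, at 792 FPKM with ISOX and 443 FPKM in untreated cells (log2 ratio 0.84). NDUFA7 of the NADH-oxidising module was at 130.2 FPKM with ISOX and 73.3 FPKM in untreated cells (log2 ratio 0.83). The last 4 of these 7 lay close to the limit of 0.80 that 1.5-fold above the median makes on this scale. Exons of NDUFB3 overlap FAM126B, those of NDUFA1 overlap RNF113A and those of NDUFA7 overlap RPS28 on the other strand. No source used here gives a strand setting, so the reads of such pairs cannot be told apart where they overlap.

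At the other end of complex I, NDUFB2 of the membrane arm had 262 FPKM in both groups (log2 ratio −0.0024). NDUFS6, an accessory subunit near the NADH-oxidising site, was at 314 FPKM with ISOX and 294 FPKM in untreated cells (log2 ratio 0.10). NDUFB10 of the membrane arm was at 122 FPKM with ISOX and 112 FPKM in untreated cells (log2 ratio 0.13). These 3, with NDUFA11 (0.15) and NDUFA10 (0.20), were the complex I members below the median of all features. The 20 accessory subunits of the membrane arm therefore spanned log2 ratios of −0.0024 to 1.33, with a median of 0.39 and 3 higher. The 9 accessory subunits of the matrix arm had a median of 0.47 and 3 higher, against 5.59% of all features.

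Complex II, which is also the succinate dehydrogenase of the tricarboxylic acid cycle and has no mitochondrially encoded subunit, differed least. SDHA, the flavoprotein, was at 85.1 FPKM with ISOX and 79.5 FPKM in untreated cells (log2 ratio 0.10). SDHB, the iron-sulfur subunit, was at 123 FPKM with ISOX and 92.2 FPKM in untreated cells (log2 ratio 0.41). SDHD, a membrane anchor and the most abundant member, was at 226 FPKM with ISOX and 189 FPKM in untreated cells (log2 ratio 0.26). SDHC, the other anchor and the least abundant member, was at 55.7 FPKM with ISOX and 45.8 FPKM in untreated cells (log2 ratio 0.28). No member of this complex was higher, which for 4 members is near the background of 5.59%. Its median of 0.27 was 0.06 above that of all features.

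In complex III the 6 genes counted as small subunits, with the copy UQCRHL among them, had a median log2 ratio of 0.68. That of the 2 redox subunits was 0.29. UQCRB, a small matrix-side subunit that contributes to the ubiquinone pocket, was at 116 FPKM with ISOX and 45.3 FPKM in untreated cells (log2 ratio 1.36, 2.57-fold). UQCR10 was at 143 FPKM with ISOX and 80.0 FPKM in untreated cells (log2 ratio 0.83). UQCRH, the acidic hinge protein and the most abundant member of the complex, was at 836 FPKM with ISOX and 503 FPKM in untreated cells (log2 ratio 0.73). The small subunits UQCRQ and UQCR11 had log2 ratios of 0.62 and 0.45. CYC1, the cytochrome c1 gene, was at 328 FPKM with ISOX and 298 FPKM in untreated cells (log2 ratio 0.14). UQCRFS1, the Rieske iron-sulfur protein gene, was at 206 FPKM with ISOX and 151 FPKM in untreated cells (log2 ratio 0.44). The core proteins UQCRC1 and UQCRC2, which do no redox chemistry, had log2 ratios of 0.28 and 0.59. UQCRHL, a nearly identical copy of UQCRH, was at 1.30 FPKM with ISOX and 1.10 FPKM in untreated cells, and reads of such copies may be assigned to either gene.

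Complex IV held the most abundant transcripts of the chain and the members with the highest ratios. COX7C, a small transmembrane subunit encoded at chr5:86617967-86620766, was the most abundant member in both groups, at 4281 FPKM with ISOX and 2181 FPKM in untreated cells (log2 ratio 0.97). COX7B, a small subunit encoded at chrX:77899464-77905384 that complex IV needs for its assembly, was at 2374 FPKM with ISOX and 824 FPKM in untreated cells (log2 ratio 1.53, 2.88-fold). COX7A2, the widely expressed form of subunit VIIa, was at 1132 FPKM with ISOX and 539 FPKM in untreated cells (log2 ratio 1.07). COX6C was at 399 FPKM with ISOX and 206 FPKM in untreated cells (log2 ratio 0.96). The other 6 widely expressed subunits were within the limit. COX4I1, the nearest of them to the median of all features, was at 744 FPKM with ISOX and 659.7 FPKM in untreated cells (log2 ratio 0.17). COX5A was at 187 FPKM with ISOX and 144 FPKM in untreated cells (log2 ratio 0.38). The remaining ones were COX5B (0.55), COX6A1 (0.53), COX6B1 (0.43) and COX8A (0.36), of which COX6A1 was the most abundant at 1329.8 FPKM with ISOX and 921 FPKM in untreated cells.

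Several subunits of complex IV have tissue-restricted forms, and all but COX6B2 were at or near 0. COX4I2, the lung form of subunit IV, COX6A2, the heart and muscle form of subunit VIa, and COX7B2 were listed at 0 in both groups. COX7A1, the heart and muscle form of subunit VIIa, was at 0.451 FPKM with ISOX and 0.0735 FPKM in untreated cells. COX8C was at 0.718 FPKM with ISOX and 0 FPKM in untreated cells, and neither of these was used. COX6B2, the testis form of subunit VIb, was at 7.84 FPKM with ISOX and 2.31 FPKM in untreated cells. Its log2 ratio of 1.77 (3.40-fold) was the highest of all members, but it rests on the lowest complex IV levels used, and with 1 FPKM added to both groups it was 1.42. COX7A2L, a protein related to subunit VIIa that takes part in joining complexes III and IV, was at 163 FPKM with ISOX and 123 FPKM in untreated cells (log2 ratio 0.41).

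In the ATP synthase the peripheral stalk, which holds the catalytic head still against the rotor, lay highest. ATP5J, which encodes its coupling factor 6, was at 254 FPKM with ISOX and 116 FPKM in untreated cells (log2 ratio 1.13, 2.19-fold). ATP5O, which encodes the oligomycin sensitivity protein, was at 519 FPKM with ISOX and 293 FPKM in untreated cells (log2 ratio 0.82). The other stalk genes ATP5F1 and ATP5H had log2 ratios of 0.59 and 0.56, so that the 4 stalk genes had a median of 0.71. In the head, ATP5A1 and ATP5B, which encode the alpha and the catalytic beta subunit, had the same log2 ratio of 0.37, and ATP5B was at 692 FPKM with ISOX and 536 FPKM in untreated cells. ATP5C1 and ATP5D of the central stalk had log2 ratios of 0.51 and 0.41. ATP5E, the epsilon subunit of the central stalk, was at 1006 FPKM with ISOX and 496 FPKM in untreated cells (log2 ratio 1.02), in a row that joins it with SLMO2, whose reads cannot be told apart from its own. Among the membrane subunits, ATP5I, which takes part in joining ATP synthases into dimers, was at 969 FPKM with ISOX and 460.2 FPKM in untreated cells (log2 ratio 1.07). ATP5L had a log2 ratio of 0.26. ATP5J2, the most abundant row of the complex and joined with PTCD1, was at 1025 FPKM with ISOX and 889 FPKM in untreated cells (log2 ratio 0.20). ATP5S and ATP5SL match the rule by name but are not subunits. ATP5S, the least abundant row of this complex, was at 18.3 FPKM with ISOX and 15.3 FPKM in untreated cells (log2 ratio 0.25).

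The proton-driven ring of complex V is built from a single mature protein, subunit c, encoded by 3 genes on different chromosomes. They are shown because their coding sequences differ from one another although their product does not. GENCODE names 7 pseudogenes after ATP5G1 and 3 after ATP5G2, and reads could be shared with these. The last 75 codons of their coding sequences in GENCODE release 29 (GRCh38) are given 5′ to 3′, with capitals at the 52 of 225 positions where the 3 genes do not all have the same base.
ATP5G1, chromosome 17: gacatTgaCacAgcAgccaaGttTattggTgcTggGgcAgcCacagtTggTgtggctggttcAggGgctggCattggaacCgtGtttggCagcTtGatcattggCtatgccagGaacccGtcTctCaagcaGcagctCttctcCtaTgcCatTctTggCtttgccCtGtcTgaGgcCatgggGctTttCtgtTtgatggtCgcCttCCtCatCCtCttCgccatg
ATP5G2, chromosome 12: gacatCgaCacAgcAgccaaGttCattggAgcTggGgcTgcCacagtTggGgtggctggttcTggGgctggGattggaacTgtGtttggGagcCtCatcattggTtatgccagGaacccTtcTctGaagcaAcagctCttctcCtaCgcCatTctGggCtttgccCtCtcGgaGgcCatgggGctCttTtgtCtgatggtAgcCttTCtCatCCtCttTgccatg
ATP5G3, chromosome 2: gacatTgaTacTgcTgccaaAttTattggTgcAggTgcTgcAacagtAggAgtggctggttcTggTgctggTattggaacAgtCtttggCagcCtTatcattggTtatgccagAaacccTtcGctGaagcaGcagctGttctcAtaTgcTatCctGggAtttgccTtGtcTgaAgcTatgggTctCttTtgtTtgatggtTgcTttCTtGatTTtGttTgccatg
ATP5G1 and ATP5G2 differed at 25 bases (88.9% identical), and ATP5G3 differed from each of the others at 42 bases (81.3% identical), yet no pair differed in a translated residue. ATP5G1 was at 367 FPKM with ISOX and 312 FPKM in untreated cells (log2 ratio 0.23). ATP5G2 was at 242 FPKM with ISOX and 159 FPKM in untreated cells (log2 ratio 0.60). ATP5G3 was at 174 FPKM with ISOX and 144 FPKM in untreated cells (log2 ratio 0.27). Summed over the 3 genes, subunit c transcripts were at 783 FPKM with ISOX and 615 FPKM in untreated cells (log2 ratio 0.35). None of the 3 was higher, which is near the background of 5.59%. The share of ATP5G2 was 30.9% with ISOX and 25.9% in untreated cells.

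**Figure D2:**
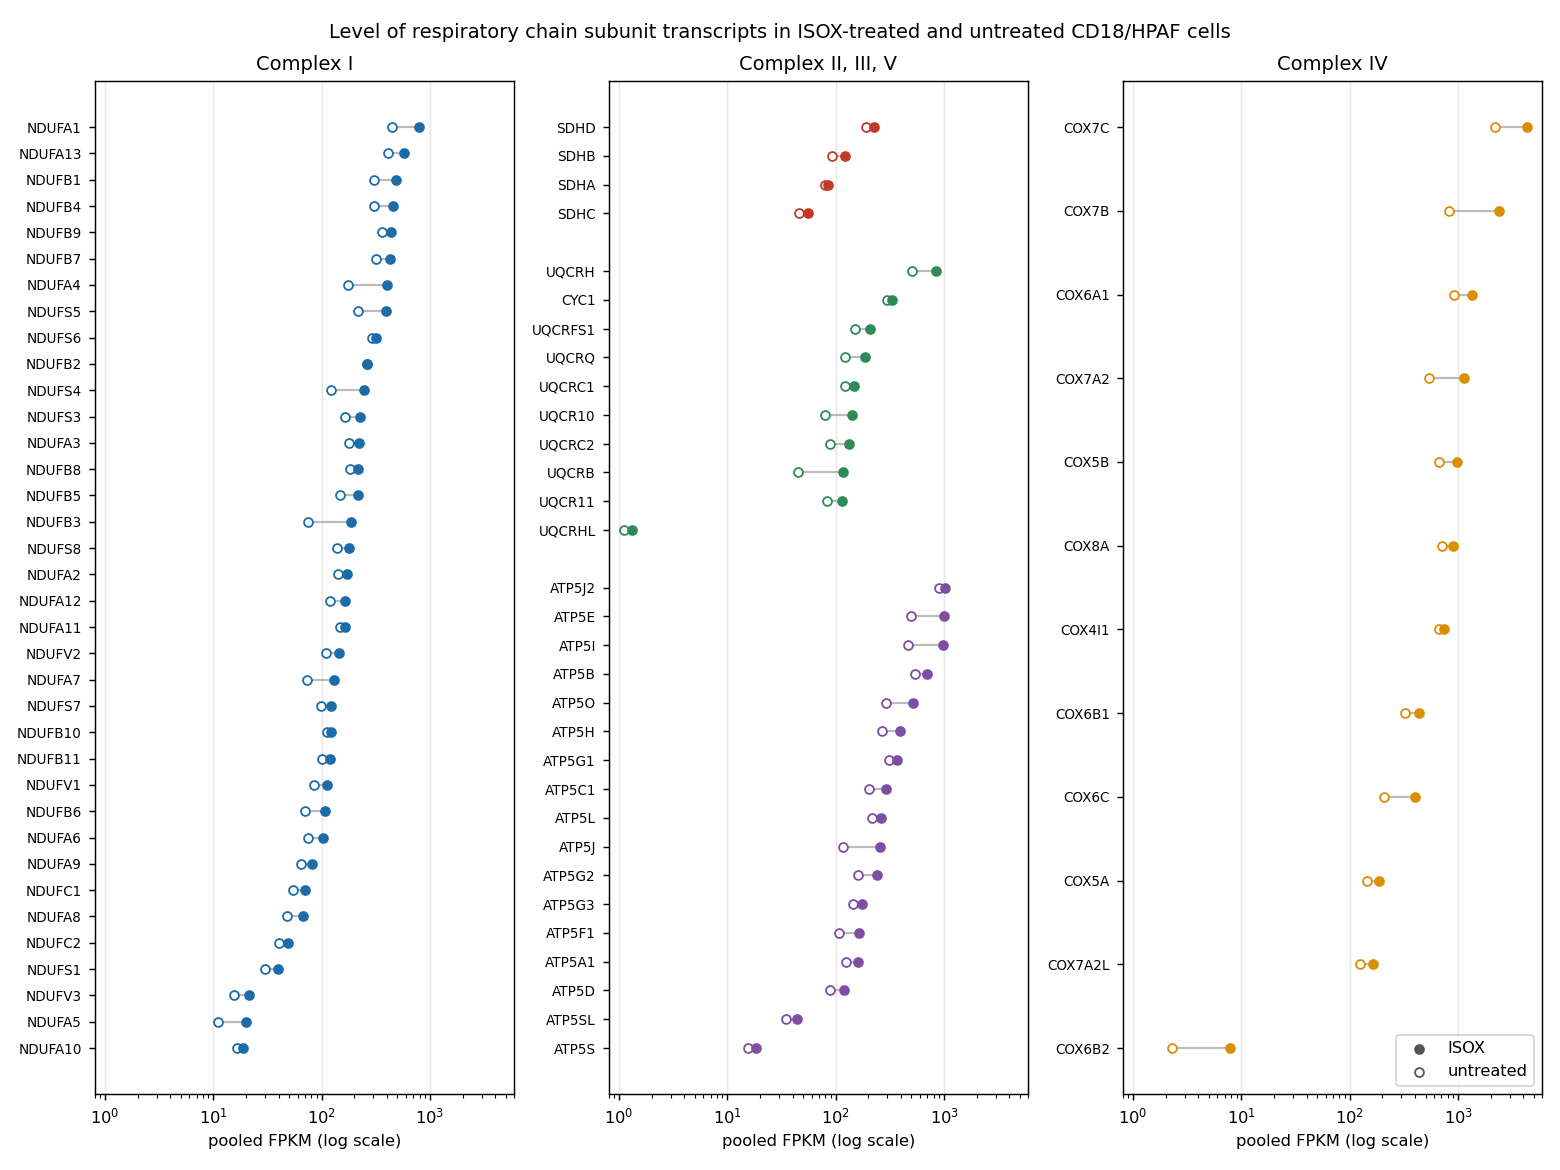
Pooled FPKM (horizontal log axis) of 79 of the 80 members with ISOX (filled) and in untreated cells (open), in panels for complex I, complexes II, III and V, and complex IV, sorted within each complex by the ISOX level. Levels run from about 1 FPKM for UQCRHL to 4281 FPKM for COX7C, and the longest lines belong to COX6B2, COX7B, UQCRB and NDUFB3.

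Subunits that are present in similar numbers in a complex differed widely in transcript level. In complex I the levels with ISOX ran from 18.9 FPKM for NDUFA10 to 792 FPKM for NDUFA1, a 41.8-fold span, and in untreated cells from 11.05 FPKM for NDUFA5 to 443 FPKM for NDUFA1, a 40.1-fold span. Among the 10 widely expressed complex IV subunits the span was 22.8-fold with ISOX and 15.1-fold in untreated cells. The order of levels was largely kept, with a Spearman correlation of 0.97 between the groups across the 80 members, which share libraries, and the differences between neighbours in this order have no spread to be set against. The largest shift was that of NDUFB3, which ranked 41st with ISOX and 63rd in untreated cells. Complex IV made up 42.8% of the members' summed FPKM with ISOX and 38.0% in untreated cells, complex I 26.2% with ISOX and 28.9% in untreated cells, and complex II 1.62% with ISOX and 2.12% in untreated cells. The shares of complex V were 22.1% with ISOX and 23.3% in untreated cells, and those of complex III 7.32% with ISOX and 7.78% in untreated cells. Of the 10 most abundant members, 6 belonged to complex IV with ISOX and 7 in untreated cells.

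In the median, the higher members had shorter coding sequences and were poorer in GC than the rest. Exceptions included ATP5O, with a coding length of 639 bases, and COX6B2, with a GC content of 58.4%. Their median coding length in GENCODE was 279 bases, against 468 bases for the 62 members within the limit, and the median GC content of their transcripts was 44.4%, against 50.9%. Of the 20 members with a coding length of up to 300 bases, 10 were higher and the median log2 ratio was 0.78, while of the 10 members over 1000 bases none was higher and the median was 0.37. Of the 8 members with a GC content of up to 42%, 6 were higher, with a median of 1.00, against 3 of 24 members over 54%, with a median of 0.36. Across the 80 members the log2 ratio had a Spearman correlation of −0.39 with coding length and −0.48 with GC content. With transcript length, taken as the median over coding transcripts, it was weaker, at −0.16. Coding length and GC content were themselves nearly unrelated (0.10). These members share the same pooled libraries, so the correlations describe these values only.

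Over all features the ratio ran the same way with coding length and GC content, where they had a value (10888 rows, 91.4%). Features with a coding length of up to 300 bases had a median log2 ratio of 0.43 and 24.7% were higher, while those over 1000 bases had a median of 0.19 and 3.29% were higher. Features with a GC content of up to 42% had a median of 0.35 and 8.79% were higher, and those over 54% had a median of 0.12 and 3.50% were higher. In each of the 4 length bands and the 4 GC bands the median of the members stood above that of all features, by 0.78 against 0.43 in the shortest band and by 0.37 against 0.19 in the longest. The part of coding length and GC content in the members' ratios was not tested.

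**Figure D3:**
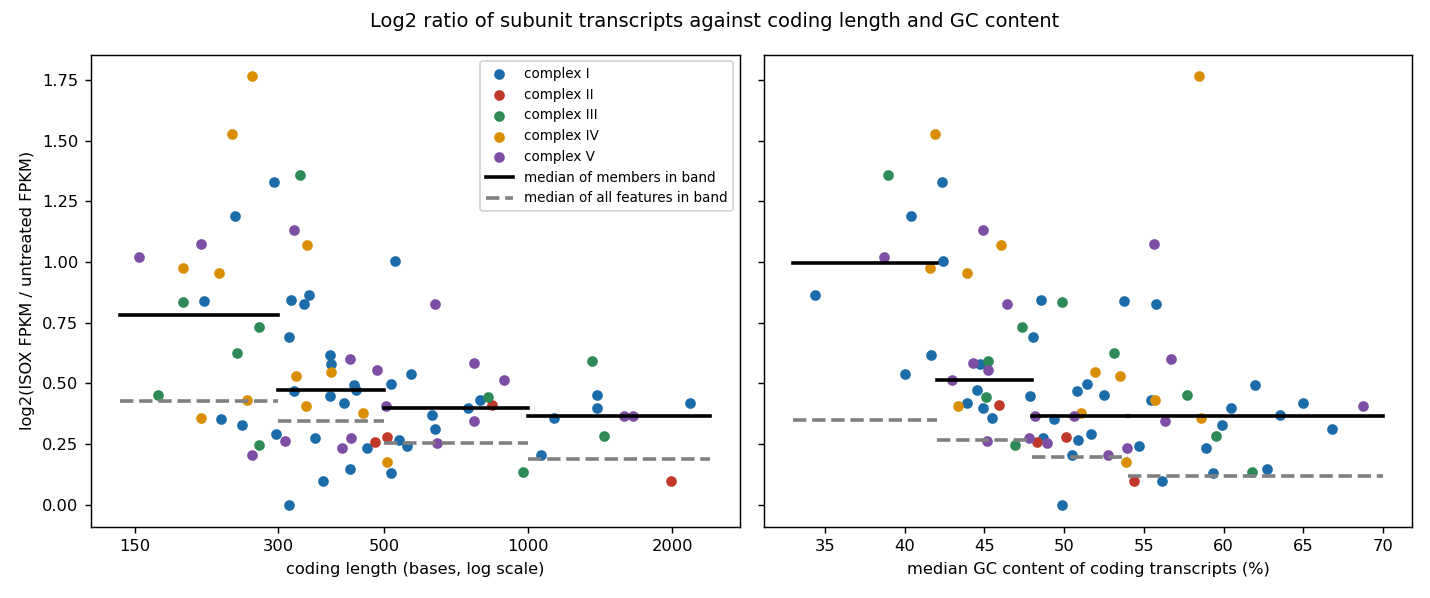
Log2 ratio, ISOX over untreated (vertical axis), of the 80 members against coding length (left, bases on a log axis) and GC content (right, %), coloured by complex. Solid bars give the median of the members in each band and dashed bars that of all features; both step down from short to long and from low to high GC, and the solid bar is above the dashed one in every band.

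Catalytic and redox-centre subunits were also counted apart from the rest. Of the 13 nuclear-encoded subunits that carry a redox centre or form the catalytic head (the complex I core, SDHA, SDHB, CYC1, UQCRFS1, ATP5A1 and ATP5B), none was higher, against 5.59% of all features, and their median log2 ratio was 0.40. Of the other 67 members, 18 were higher and the median was 0.47. This division was chosen after the values were seen and its difference was not tested. All 13 have coding lengths of at least 630 bases, and in the bands from 500 to 1000 bases and over 1000 bases only 2 of 21 and none of 10 members were higher, so that this count and coding length cannot be told apart here.

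Promoters were searched because transcription of many respiratory genes is known to be driven by NRF1, by ETS-family factors such as GABP, and by YY1. RefSeq sequences from 250 bases before to 50 bases after the gene start (GRCh38.p14) were at hand for 66 of the 80 members, and each motif was searched on both strands in these and in all 35116 promoters of the same table. The letters AAGATGGCG, of the YY1 kind, were in 8 of 66 member promoters (12.1%) and in 1.75% of all promoters. The ETS letters ACTTCCGG were in 9 (13.6%, against 4.14% of all), the palindromic core motif of NRF1 in 4 (6.06%, against 1.24%), the cyclic AMP response element TGACGTCA in 5 (7.58%, against 1.85%) and the CCAAT box in 22 (33.3%, against 34.6%), and none of these strings contains another. Members with the YY1 letters had a median log2 ratio of 0.43 and those without 0.45, and members with the ETS letters had a median of 0.49 and those without 0.43. The medians with and without the motif were 0.51 and 0.44 for NRF1, 0.50 and 0.42 for the CCAAT box, and 0.23 and 0.45 for the cyclic AMP response element, which only 5 members hold, and none of these differences was tested. The 66 promoters belong to members that passed the limit on level, while the 35116 were not limited to expressed genes. Their shares therefore describe unlike sets, and whether the motifs are particular to respiratory genes was not tested. A match describes these letters only. The promoters of NDUFS4 and ATP5J are shown, as the members with the highest ratios among those with the YY1 letters, which stand in capitals.
NDUFS4, chr5:53560389-53560688, plus strand: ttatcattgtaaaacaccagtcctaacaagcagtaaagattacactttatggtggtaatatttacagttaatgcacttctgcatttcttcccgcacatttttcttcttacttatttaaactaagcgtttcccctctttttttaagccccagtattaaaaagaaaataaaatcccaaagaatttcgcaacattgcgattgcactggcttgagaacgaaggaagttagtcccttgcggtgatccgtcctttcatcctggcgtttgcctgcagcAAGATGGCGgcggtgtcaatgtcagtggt
ATP5J, chr21:25735005-25735304, minus strand: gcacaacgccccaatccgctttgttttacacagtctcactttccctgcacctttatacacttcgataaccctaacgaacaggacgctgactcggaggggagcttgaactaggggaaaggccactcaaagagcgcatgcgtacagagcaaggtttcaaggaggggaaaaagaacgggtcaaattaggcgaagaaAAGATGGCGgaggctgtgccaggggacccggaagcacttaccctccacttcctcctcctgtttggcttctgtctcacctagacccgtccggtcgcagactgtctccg
The match lies 21 bases after the start site in NDUFS4 and 57 bases before it in ATP5J, counted to its first base. Exons of ATP5J overlap GABPA on the other strand, and GABPA itself, which encodes the DNA-binding subunit of GABP, was at 15.2 FPKM with ISOX and 11.9 FPKM in untreated cells (log2 ratio 0.36).

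Genes whose products build the chain or regulate its transcription had medians nearer to that of all features than the subunits had, a difference that was not tested. Of 52 assembly factors, among which the ATP synthase inhibitor ATPIF1 was counted, 2 (3.85%) were higher, a share near the 5.59% of all features. None was lower, and the median log2 ratio was 0.32. NDUFAF4, an assembly factor of complex I, was at 15.0 FPKM with ISOX and 7.18 FPKM in untreated cells (log2 ratio 1.06). COX16, in a row joined with SYNJ2BP, was at 94.5 FPKM with ISOX and 51.9 FPKM in untreated cells (log2 ratio 0.86). The copper chaperone COX17 and the complex I assembly factor TMEM126B, both at a log2 ratio of 0.79, lay just inside the limit. Of the 13 listed transcription regulators, 11 were above the limit on level, and none of these was higher or lower, with a median of 0.26. NRF1 was at 4.92 FPKM with ISOX and 3.80 FPKM in untreated cells (log2 ratio 0.37). TFAM, the packaging factor of mitochondrial DNA, was at 18.2 FPKM with ISOX and 16.4 FPKM in untreated cells (log2 ratio 0.15). PPARGC1A, the coactivator of mitochondrial biogenesis, was at 0.0578 FPKM with ISOX and 0.0179 FPKM in untreated cells. Of 13 tricarboxylic acid cycle enzymes none was higher or lower, with a median of 0.42. With lists this short and 5.59% of all features higher, a count of none is near the background. Of the subunits and carriers that the symbol rule misses, the ATP synthase subunit USMG5 was at 816 FPKM with ISOX and 317 FPKM in untreated cells (log2 ratio 1.36). C14orf2, also of the ATP synthase, was at 347 FPKM with ISOX and 170.4 FPKM in untreated cells (log2 ratio 1.03), and both were higher. CYCS, which encodes cytochrome c, was at 92.2 FPKM with ISOX and 53.8 FPKM in untreated cells (log2 ratio 0.78). NDUFAB1, the acyl carrier protein of complex I, had a log2 ratio of 0.29.

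Beside the subunits, 79 mitochondrial ribosomal protein genes had a median log2 ratio of 0.37 with 10 (12.7%) higher, and 83 cytosolic ribosomal protein genes, which are likewise short and abundant transcripts, had a median of 0.48 with 16 (19.3%) higher. No member of either list was lower. Over all features, 5.59% were higher and 4.9% were lower. The medians of the 3 lists thus lay between 0.37 and 0.48, and differences among them were not tested.

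**Figure D4:**
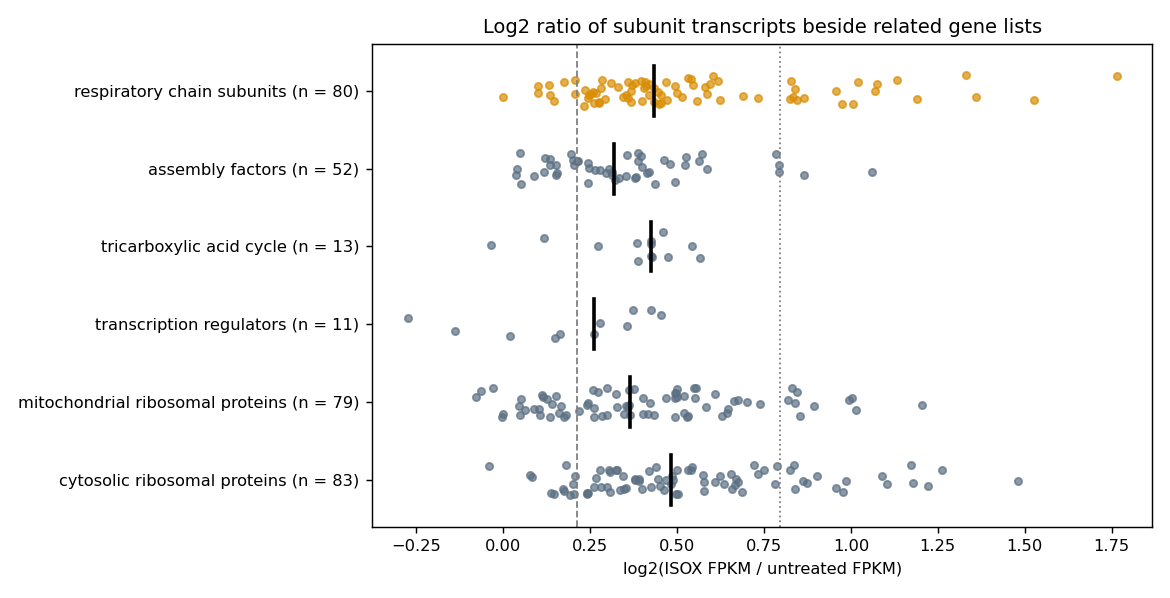
Log2 ratio, ISOX over untreated (horizontal axis), of the 80 subunit transcripts and of related lists, 1 point per gene, with a black bar at each median, the dashed line at the median of all features (0.21) and the dotted line 1.5-fold above it. The median of the subunits (0.43) stands between those of the mitochondrial (0.37) and the cytosolic (0.48) ribosomal proteins and above those of the assembly factors (0.32) and the transcription regulators (0.26). The median of the tricarboxylic acid cycle enzymes (0.42) lies next to that of the subunits.

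The 8 genes that were not used were the 4 at 0 in both groups (COX4I2, COX6A2, COX7B2 and the pseudogene ATP5EP2) and the 4 at low values, COX7A1, COX8C, ATP5L2, a copy of ATP5L, at 0.169 FPKM with ISOX and 0 FPKM in untreated cells, and the pseudogene UQCRBP1 at 0 FPKM with ISOX and 0.133 FPKM in untreated cells. A further 13 rows of NDUFA3, NDUFA6 and COX8C lie on alternate scaffolds of hg38 and were all at 0. Of the 80 members used, 33 have exons that overlap an exon of another gene on the other strand, 8 of them among the 18 higher members, and GENCODE names pseudogenes after 44, 10 of them among the higher members, so that reads could be shared with other loci in these.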

How the data were processed

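RNA of CD18/HPAF cells treated with ISOX or left untreated (12 sample titles per group, numbered 1 to 3 and within these 1 to 4, with no word on separate cultures) was sequenced by the authors with paired reads of 75 bases. The submitters' processing notes name Bowtie, TopHat, Cufflinks, Cuffdiff and hg38, without versions. What the authors deposited is a Cuffdiff table with 1 pooled FPKM per gene and group, so there is no SD and no depth, and no test across samples could be run. The table also holds the authors' own fold change, test statistic, p, q, significance and test status, and these were not used.

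Log2 ratios were computed with no pseudocount for rows above 0 in both groups and with a mean of at least 1 FPKM, and counted past 1.5-fold from the median of all such rows. The values of 1 member are not reported here, though it enters the counts and medians. Members, lists and tests were chosen with earlier results of these data known. Full values were given for the most and least abundant member of each complex, for up to 4 members farthest from the median on each side among those past 1.5-fold, and for paralogs; other members were added to complete each complex. Coding lengths are those of APPRIS principal transcripts. Transcript length and GC content are medians over coding transcripts. All are from GENCODE release 29, with older symbols matched. Alternatives were the filter, pseudocounts of 1 and 0.1, 2-fold, no centring, the mean, joined rows or non-subunits left out, and NDUFA4 placed with complex IV. Starts are counted from 1. Python 3.11.15, numpy 2.4.6, pandas 2.3.3, scipy 1.17.1, biopython 1.88 and matplotlib 3.10.9 were used.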

Additional observations from a re-analysis of the deposited data

How the results depend on the processing

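No member was lower under any of the 8 alternatives tried on the counts, and the number of higher members ran from 4 to 25 in them, against 18 as reported. It was 4 at 2-fold, where 1.6% of all features were higher, and 25 without centring on all features. Means instead of medians gave a log2 ratio of 0.53 for the members, 0.76 for complex IV and 0.53 for complex V, and leaving out ATP5S and ATP5SL gave a median of 0.51 for complex V. The other medians stayed within 0.1 of the values reported. The order of complexes III and IV was not kept. With non-subunits left out, UQCRHL among them, the median was 0.59 for complex III and 0.54 for complex IV. With a mean of at least 5 FPKM these 2 medians were also 0.59 and 0.54. With the most abundant member of each complex left out, the share of complex I in untreated cells was 34.0% and that of complex IV with ISOX 37.5%, in place of 28.9% and 42.8%; the other shares stayed within 5 percentage points. No paired analysis was possible because the values are pooled per group, and for the same reason no sample could be left out. The spread between samples and the depth limit every statement, since neither is known.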

Other observations

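Some rows carry nuclear sequence of mitochondrial origin. The highest value of the whole table was that of MIR6723, a short microRNA gene on chromosome 1 from 632325 to 632413 that lies inside MTCO1P12, a nuclear pseudogene of the mitochondrially encoded complex IV subunit 1. It was at 141969 FPKM with ISOX and 106942 FPKM in untreated cells (log2 ratio 0.41), or 16.25% of all FPKM in the table with ISOX and 16.03% in untreated cells. The 80 nuclear subunit genes together held 3.46% with ISOX and 2.88% in untreated cells. Of the MTRNR2L genes, nuclear copies related to the mitochondrial 16S ribosomal RNA, 5 of 10 were above the limit on level, and all 5 were higher, with log2 ratios between 1.09 and 1.35. MTRNR2L2, the most abundant of these, was at 421 FPKM with ISOX and 197 FPKM in untreated cells. Reads of the mitochondrial genes and of such copies cannot be told apart by sequence where they are identical, and whether mitochondrial reads reached these rows was not tested. These rows were chosen after their values were seen.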
